A study of Mus musculus with 5 samples.

Results

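The cells described here are stromal fibroblasts of mouse sarcomas that carried Mmp13 transcripts. Stroma was taken as cells with at least 500 detected genes, at most 10% mitochondrial unique molecular identifiers (UMIs, 1 per captured transcript), fewer than 5 UMIs of the pericyte gene Rgs5 per 10000 and at least 4 UMIs summed over Ddah1, Wisp1, C1qtnf7 and Fbn2. Members were stroma with at least 3 Mmp13 UMIs and fewer than 3 UMIs of the haptoglobin gene Hp. There were 142 of them among 2339 stroma cells and 29412 kept cells of 4 sarcomas (37519 kept cells in all 5 libraries). They numbered 13, 20, 107 and 2 in sarcomas 1 to 4. The cells were chosen by their measured UMIs of Mmp13, Hp and the 4 gate genes, so levels of Mmp13 and Hp are given as a description only and neither was tested. The 4 gate genes stayed in the test, and their levels are a description only as well.

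All libraries came from C57BL/6J mice and from sorted cells. The sarcoma mice were Hic1CreERT2/CreERT2;Rosa26LSLtdTomato/LSLtdTomato;Smarcb1FL/FL, and their endpoint tumours were taken from the shoulder (sarcoma 1), head (2), head/ear (3) and hip (4). The muscle library held quiescent hindlimb progenitors of Hic1CreERT2/CreERT2;Rosa26LSLtdTomato/+ mice, with Smarcb1 not floxed. Cre was thus driven from both copies of the Hic1 locus in every group, and cells that express Hic1 at the time of induction carry the tdTomato reporter and, in the sarcoma mice, may lose Smarcb1. Per the labels, animals 8 weeks old received 2.5 mg of tamoxifen in 100 µL of sunflower oil on each of 5 days, followed by 10 days without treatment. Whether each tumour was from its own animal is not given, and a p-value here measures no more than the variation among the libraries, part of which may be technical.

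Mmp13 encodes collagenase-3, a secreted zinc protease that cleaves fibrillar collagen and is the chief interstitial collagenase of rodents. It is made as an inactive precursor, is activated outside the cell by other proteases such as MMP14, and is blocked by the tissue inhibitors of metalloproteinases (TIMPs). Hypertrophic chondrocytes and osteoblasts are its classic sources, and fibroblasts of wounds and tumours also make it. Transcription from its promoter is known to use an AP-1 site and a RUNX site.

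Mmp13 lies on the forward strand of chr9:7272514-7283331 (GRCm38, mm10), at the near end of a row of related genes: Mmp12 starts 71.9 kb away, Mmp3 173 kb, Mmp10 229.8 kb, Mmp8 286 kb and Mmp27 299 kb. The promoter is shown because both of its textbook elements can be read in it. The RefSeq sequence (GRCm38.p6, forward strand, chr9:7272264-7272513, the 250 bases before the start) is given 5′ to 3′, with the RUNX match AACCACA and the AP-1 match TGACTCA in capitals.
Mmp13: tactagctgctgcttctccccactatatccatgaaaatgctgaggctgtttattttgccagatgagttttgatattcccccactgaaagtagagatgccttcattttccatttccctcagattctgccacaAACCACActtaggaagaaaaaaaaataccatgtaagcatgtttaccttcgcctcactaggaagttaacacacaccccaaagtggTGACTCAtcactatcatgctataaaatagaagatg
The AP-1 letters (TGANTCA) begin 35 bases and the RUNX letters (AACCACA) 119 bases before the start, both strands having been searched. Of 32851 mouse promoters of the same length, 6.749% hold the AP-1 letters, 4.396% the RUNX letters and 0.344% both. These are matches of letters and were not tested as binding sites.

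The library totals ran from 64061069 UMIs (muscle) to 213271163 UMIs (sarcoma 2), and the members' median depth was 19588, 27646.5, 24664 and 17896 UMIs in sarcomas 1 to 4, against 22913, 27535, 21066 and 39573.5 in stroma without Mmp13. No barcode was a member in more than 1 sarcoma, 2 member barcodes also occurred among the cells of another library, and no pair of libraries shared more than 22 barcodes. Of the cells in the highest 6% of doublet scores, 1, 3, 6 and 0 were members (of 13, 20, 107 and 2 in sarcomas 1 to 4). Stroma without Mmp13 held 16, 9, 90 and 17 such cells (of 191, 129, 1513 and 168). Smarcb1, the gene deleted in the tumour cells, checks which cells carry the deletion. It stood in the members at 59.7, 78.7, 57.6 and 112 counts per 1000000 UMIs (CPM, a level within a gene) in sarcomas 1 to 4, and at 0.827, 1.07, 4.56 and 0.236 CPM in the cells outside the gates. The level in sarcoma 4 rests on 4 UMIs, all from 1 of its 2 members. As a sum, every member class held Smarcb1 above the cells outside the gates of its own library.

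The comparator was stroma with 0 Mmp13 UMIs (191, 129, 1513 and 168 cells), called Mmp13-zero stroma here. Its Smarcb1 level was 29.9, 49.98, 56.6 and 3.41 CPM in sarcomas 1 to 4, so in sarcoma 4 the gates held mostly cells with little Smarcb1, and in sarcoma 1 a mixture. Nefl, a neurofilament gene high outside the gates of sarcoma 1 (1174 CPM), stood at 448 CPM in that library's Mmp13-zero stroma and at 10.5 CPM in its members. A Smarcb1 UMI was found in 44.5% of the former and 76.9% of the latter. Where sarcoma 1 is set beside sarcomas 2 and 3 below, it has this mixed comparator, and the part of the mixture was not tested. Sarcomas 2 and 3 were the libraries with at least 20 cells on both sides, and the tests rest on them. Hic1 and tdTomato, the driver locus and the reporter, were present in the members of every sarcoma (19.6 to 40.2 CPM and 855 to 2179 CPM).

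**Figure D1:**
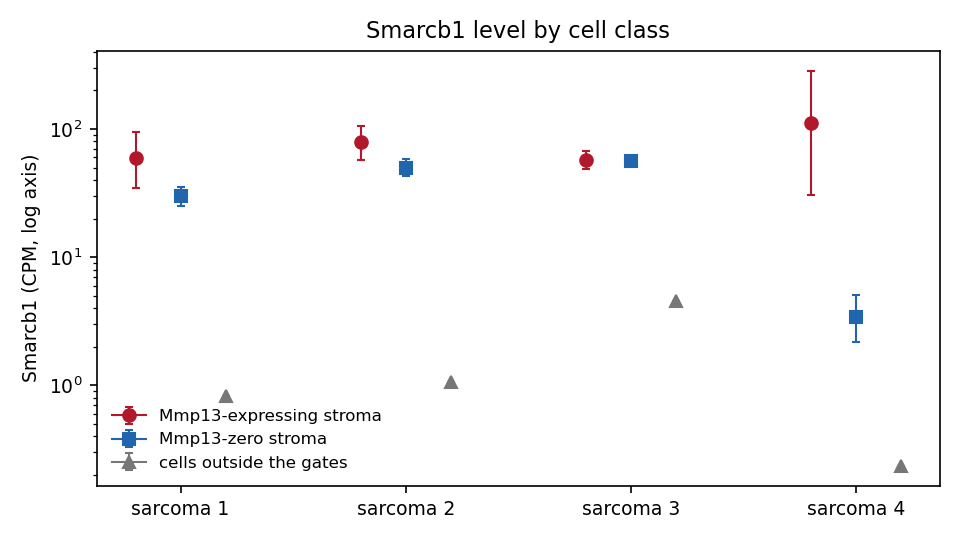
Smarcb1 level (CPM, log axis) by sarcoma in Mmp13-expressing stroma (red circles), Mmp13-zero stroma (blue squares) and cells outside the gates (grey triangles, no interval drawn). Bars are exact 95% Poisson intervals of the summed counts. The members lie between 57.6 and 112 CPM, and the Mmp13-zero stroma of sarcoma 4 lies at 3.41 CPM. The 112 CPM of sarcoma 4 comes from 1 cell.

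The label was checked against fibroblast genes and against markers of other cell types. The members carried fibrillar collagen transcripts as the other stroma did: Col1a1 stood at 8112, 11097 and 15704 CPM in sarcomas 1 to 3, against 6880.1, 9743 and 12099 CPM in Mmp13-zero stroma and 61.2, 219 and 2115 CPM outside the gates. Of 12 general fibroblast genes, 0 passed the test against Mmp13-zero stroma by edgeR (3 at an unadjusted p under 0.05, 0 by DESeq2 and 1 by limma-voom). The leucocyte gene Ptprc had 0 UMIs in all members. The summed level of 13 macrophage and monocyte markers was 56.2, 108 and 85.9 CPM in the members of sarcomas 1 to 3, against 31.5, 66.9 and 77.3 CPM in Mmp13-zero stroma, with Ptprc and Adgre1 at 0. Most of it was Cd53 (38.7, 99.6 and 57.3 CPM), the tetraspanin marker that passed the test (log2 fold change 0.94 ± 0.19 SE, adjusted p = 0.0341). That call was lost against Mmp13-zero stroma low in Hp (adjusted p = 0.128), without cells carrying Cdkn2a, Nefl or Gchfr (0.117) and without cells lacking a Smarcb1 UMI (0.338). The part of such cells in the results was not tested. The summed level of 8 osteoblast markers was higher in the members of each library (439, 89.2 and 65.0 CPM against 152, 64.9 and 43.5 CPM). Runx2 was the 1 marker of these with enough counts to be tested and did not pass (adjusted p = 0.159), Bglap2 and Phex were at 0, and Alpl stood at 21.1, 0 and 2.10 CPM. Ibsp (bone sialoprotein) stood at 302 CPM in sarcoma 1 from 86 UMIs of 1 cell and at 0 in sarcomas 2 and 3. The chondrocyte markers summed to 165, 48.9 and 128 CPM in the members against 142, 44.6 and 110.1 CPM, with 0 of 3 tested called by edgeR, DESeq2 or limma-voom and 2 of 3 at an unadjusted p under 0.05 by edgeR (median log2 fold change 0.80). Acan, the cartilage proteoglycan aggrecan, stood at 0, 1.75 and 42.3 CPM against 0, 0 and 25.7 CPM (adjusted p = 0.611), and it passed against Hp-expressing stroma, described further on (0 and 5.06 CPM in sarcomas 2 and 3, log2 fold change 3.04 ± 0.36, adjusted p = 0.00769). Matn1 was at 0, and Sox9 stood at 165, 42.0 and 77.5 CPM against 124, 43.2 and 80.8 CPM.

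The members' Mmp13 counts spread from the threshold upwards. The lowest, median and highest Mmp13 UMI counts per member were 3, 8 and 108 in sarcoma 1, 3, 11.5 and 67 in sarcoma 2, and 3, 9 and 437 in sarcoma 3. The members of sarcoma 4 held 10 and 35. In sarcoma 1 the highest cell held 55.7% of the members' Mmp13 UMIs, in sarcoma 2 17.4% and in sarcoma 3 13.3%. Just inside the threshold, 4, 2, 14 and 0 members held exactly 3 UMIs. Just outside it, 2, 5, 28 and 0 stroma cells held 2.

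Members were a minority of the stroma. Their share of stroma was 6.05% in sarcoma 1 (exact 95% binomial interval 3.26 to 10.1%), 11.3% in sarcoma 2 (7.04 to 16.9%), 6.02% in sarcoma 3 (4.96 to 7.23%) and 1.18% in sarcoma 4 (0.143 to 4.19%). These intervals cover counting error only. The members of sarcomas 1 to 4 held 29.3, 25.4, 58.0 and 13.7% of all Mmp13 UMIs among the kept cells of their library, a share the rule itself favours, where the whole stroma held 41.0, 80.7, 88.3 and 13.7%. Outside the gates 0.485, 0.777, 2.38 and 0.106% of cells had any Mmp13 UMI, at median depths of 24350, 25164, 19626.5 and 28482 UMIs. Of these cells 10, 8, 17 and 2 held at least 3 Mmp13 UMIs. The part of free RNA in these UMIs was not tested. In the muscle library 0 of the 173 cells that passed the same gates had an Mmp13 UMI, at a median depth of 11338 UMIs, below that of the sarcoma stroma. At that depth 3 counts of 173 set a limit of 1.73% on cells with a UMI, not on cells expressing the gene. Of all 8107 muscle cells 2 had any, and 1 of them held at least 3. The gated muscle cells were unlike the sarcoma stroma. Their 7 tenocyte markers summed to 16754 CPM, against 1116, 513 and 3550 CPM in Mmp13-zero stroma of sarcomas 1 to 3. With 1 muscle library, the difference in Mmp13 has no replicate check.

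A further class of stroma carried both genes used by the rule. It held 6, 20, 44 and 0 cells with at least 3 UMIs of Mmp13 and of Hp. Hp reached 3 UMIs in 31.6, 50 and 29.1% of stroma with at least 3 Mmp13 UMIs in sarcomas 1 to 3, and in 12.6, 38.0 and 13.0% of Mmp13-zero stroma. The members are thus the Hp-low side of the Mmp13-expressing stroma, and the comparator keeps its Hp-expressing cells.

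**Figure D2:**
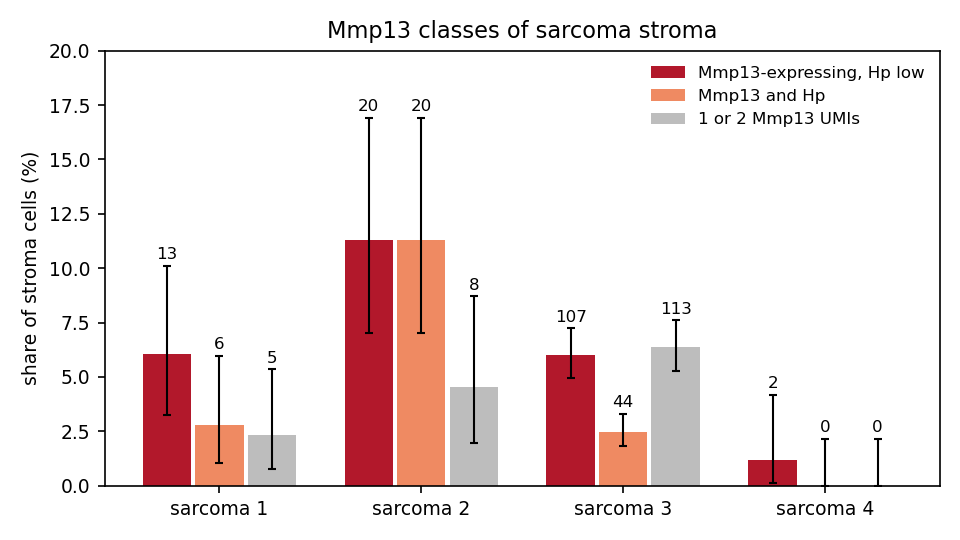
Share of stroma (%) in each sarcoma that was Mmp13-expressing with low Hp (red), carried both Mmp13 and Hp (orange) or held 1 or 2 Mmp13 UMIs (grey). Numbers are cells and bars are exact 95% binomial intervals. The members' share is 11.3% in sarcoma 2 and 1.18% in sarcoma 4.

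Members were then compared with Mmp13-zero stroma on counts summed per library and class, with the library as a block. Of 11024 genes tested, 84 (0.762%) passed an adjusted p of 0.05 (edgeR quasi-likelihood test, Benjamini-Hochberg), 33 of them higher in the members (0.299%) and 51 lower (0.463%), and 671 passed an unadjusted p of 0.05. The fit used 2 libraries and had 1 residual degree of freedom, so each p leans on the spread estimated over all genes. Without the library block 0 genes passed (116 at an unadjusted p under 0.05). With members redefined by at least 5 Mmp13 UMIs 3 genes passed, Ccl5, Saa3 and Eln. With the comparator limited to stroma with fewer than 3 Hp UMIs 24 genes passed, 21 of them among the 84 and in the same direction. With cells that carried 2 or more UMIs of Cdkn2a, Nefl or Gchfr (genes of the sarcoma cells) left out, 26 passed, 22 of them among the 84. That setting kept 15 and 92 members of sarcomas 2 and 3 and so also holds fewer cells. These last 2 settings are called Hp-low stroma and the setting without sarcoma-cell transcripts. With sarcoma 1 added to the fit, a setting chosen after the data had been seen, 28 passed, 26 of them among the 84.

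Most calls on single genes depended on these choices. Of the genes described next, Thbs2, Edil3, Eln, Tnxb, Tmeff2, Ifit1, C4b and Gzmc kept an adjusted p under 0.05 in those 3 settings. Without sarcoma-cell transcripts the call was lost for Tnc, Fn1, Spp1, S100a5 and Ccl5, whose values are given with them, and for other genes. Among the matrix and tendon genes the adjusted p was then 0.497 for Thbs4, 0.254 for Aspn, 0.09 for Tnmd, 0.093 for Col12a1, 0.327 for Col11a1 and 0.568 for Serpine2. Among the receptors and secreted factors it was 0.0721 for Adra2a, 0.254 for Ptn, 0.215 for Kcnj15, 0.252 for Brinp3, 0.955 for Nrep and 0.185 for Aqp5. Among the genes that were lower it was 0.165 for Gsn, 0.21 for Penk, 0.106 for Apoe, 0.0778 for Hspb1, 0.0568 for C3, 0.0721 for Cp and 0.254 for Cxcl12. With sarcoma 1 added it was 0.226 for Thbs1, 0.129 for Clec3b, 0.0797 for Figf, 0.113 for Lcn2 and 0.314 for Cxcl9, which had passed without sarcoma-cell transcripts.

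Matricellular proteins and the provisional matrix formed the list with the most higher genes by edgeR: 7 of 27 tested were higher (Tnc, Thbs1, Thbs2, Thbs4, Fn1, Spp1 and Aspn) and 1 was lower (Tnxb), with a median log2 fold change of 0.19, against -0.01 over all genes tested. DESeq2 called 4 of the 27 and limma-voom 6. Over all genes tested by edgeR 0.299% were higher and 0.463% lower. DESeq2 called 35 of 8032 genes tested and limma-voom 76 of 11024. These are the background for every list below that is set against Mmp13-zero stroma. These proteins sit in the matrix without carrying its main load and tune how cells hold on to it. Tenascin-C (Tnc), which is laid down in wounds and tumour stroma, stood at 647, 552 and 907 CPM in the members of sarcomas 1 to 3, and at 211, 293 and 422 CPM in Mmp13-zero stroma. The members were higher in each of the 3 libraries, and the exact 95% Poisson intervals did not overlap in any (in sarcoma 2, 493 to 617 CPM against 276 to 311 CPM). Here and below such intervals cover counting error only, not the spread among cells, and are a description. The log2 fold change was 1.02 ± 0.15 (SE, adjusted p = 0.00502). Tnc was 1 of the genes given as a marker of these cells. Its call was lost against Hp-low Mmp13-zero stroma (log2 fold change 1.08, adjusted p = 0.264) and without sarcoma-cell transcripts (log2 fold change 0.57, adjusted p = 0.883). A Tnc UMI was found in 76.9, 55 and 71.0% of members and in 45.5, 47.3 and 48.6% of Mmp13-zero stroma, and outside the gates in 7.06, 1.72 and 24.4% of cells. After each cell was thinned to 5000 UMIs these shares were 69.2, 45 and 58.9% in the members, and 28.9 and 30.7% in the Mmp13-zero stroma of sarcomas 2 and 3, where 1 and 7 shallower cells were left out.

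Thrombospondin-2 (Thbs2), an antiangiogenic matrix protein, stood at 713, 444 and 427 CPM in the members and at 359, 152 and 198 CPM in Mmp13-zero stroma. The Poisson intervals of the summed levels did not overlap in any of the 3 libraries, while single cells of the classes did overlap. The log2 fold change was 1.32 ± 0.16 (SE, adjusted p = 0.00201), and the call was kept against Hp-low stroma (adjusted p = 0.0361). Thbs1, an activator of latent TGF-beta, stood at 397, 829 and 269 CPM against 367, 351 and 150.4 CPM, close together in sarcoma 1 and apart in sarcomas 2 and 3 (log2 fold change 1.04 ± 0.16, adjusted p = 0.00581, and 0.111 against Hp-low stroma). The highest cell held 39.2% of the Thbs1 UMIs of the members of sarcoma 2. Fibronectin (Fn1), the scaffold of early wound matrix, stood at 5630.3, 8008 and 5593 CPM against 2675, 5351 and 3903 CPM (log2 fold change 0.55 ± 0.11, adjusted p = 0.0317, 0.139 against Hp-low stroma, and 0.765 without sarcoma-cell transcripts). Osteopontin (Spp1), a phosphoprotein of bone and of many tumours, stood at 2432, 13001 and 1656 CPM against 1186, 9967 and 619 CPM (log2 fold change 0.90 ± 0.19, adjusted p = 0.0471). In sarcoma 2 the highest member cell held 59.0% of its UMIs, and without sarcoma-cell transcripts the log2 fold change was -0.11 (adjusted p = 1). Asporin (Aspn), a small proteoglycan that binds TGF-beta, stood at 2291, 839 and 1792 CPM against 596, 373 and 1293 CPM (log2 fold change 0.81 ± 0.16, adjusted p = 0.0317, and 0.41 against Hp-low stroma). Tenascin-X (Tnxb), the tenascin of resting connective tissue, went the other way, at 0, 6.99 and 5.24 CPM against 95.4, 63.2 and 28.1 CPM (log2 fold change -2.63 ± 0.31, adjusted p = 0.00153, and 0.0203 against Hp-low stroma).

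Some tendon genes were higher. Of 6 tenocyte markers tested, 2 were higher (Tnmd and Thbs4) and 0 lower by edgeR, and DESeq2 called 2 and limma-voom 1. By edgeR 0.299% of all genes tested were higher. Tenomodulin (Tnmd), a membrane protein of tendon and ligament cells, stood at 31.6, 163 and 328 CPM in the members and at 16.2, 42.4 and 142 CPM in Mmp13-zero stroma (log2 fold change 1.52 ± 0.19, adjusted p = 0.00263, and 0.0545 against Hp-low stroma). It was found in 23.1, 50 and 42.1% of members and in 10.5, 20.2 and 16.4% of Mmp13-zero stroma, and outside the gates in 0.029, 0.204 and 10.3% of cells. Thbs4, the thrombospondin of tendon matrix, stood at 805, 862 and 4361 CPM against 1061, 427 and 3182 CPM, lower in the members of sarcoma 1 and higher in those of sarcomas 2 and 3 (log2 fold change 0.73 ± 0.14, adjusted p = 0.0300, and 0.649 against Hp-low stroma). Scleraxis (Scx), the transcription factor of the tendon lineage, stood at 7.03, 52.4 and 85.9 CPM against 3.41, 4.80 and 44.5 CPM and did not pass (adjusted p = 0.0724). In sarcoma 2, 28 of its 30 UMIs in members came from 1 cell. Muscle cells that passed the same gates held 3224 CPM of Tnmd, 833 CPM of Scx and 7764 CPM of Thbs4, and keratocan (Kera), at 1057 CPM there, stood at 0, 0 and 1.75 CPM in the members.

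Of the collagen genes, 2 of 19 tested were higher and 0 lower by edgeR, and DESeq2 called 1 and limma-voom 1. By edgeR 0.299% of all genes tested were higher. Col12a1, a collagen that decorates the surface of fibrils, stood at 763, 673 and 558 CPM in the members and at 279.7, 360.3 and 306 CPM in Mmp13-zero stroma, with no overlap of Poisson intervals in any of the 3 libraries (log2 fold change 0.89 ± 0.14, adjusted p = 0.0104, and 0.135 against Hp-low stroma). Col11a1, a minor fibrillar collagen that sets fibril width, stood at 0, 73.4 and 219 CPM against 18.4, 20.05 and 133 CPM, lower in sarcoma 1 and higher in sarcomas 2 and 3 (log2 fold change 1.12 ± 0.23, adjusted p = 0.0469, and 0.264 against Hp-low stroma). Col3a1, the most abundant, stood at 11071, 16044 and 17315 CPM against 10237, 16193 and 17177 CPM (log2 fold change 0.00 ± 0.10).

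The 12 largest rises among called genes with a mean of at least 50 CPM and 1 direction in both libraries included several receptors and secreted factors. Adra2a, the alpha-2A adrenergic receptor, stood at 109, 59.4 and 79.3 CPM in the members and at 10.2, 7.34 and 27.2 CPM in Mmp13-zero stroma. Its rise was the largest of those 12 (log2 fold change 1.98 ± 0.28, adjusted p = 0.0044, and 0.0202 against Hp-low stroma), and it was found in 84.6, 30 and 51.4% of members against 12.04, 12.4 and 18.9% of Mmp13-zero stroma and 3.07, 0.535 and 2.32% of cells outside the gates. Edil3, an integrin-binding matrix protein, stood at 144, 112 and 115 CPM against 22.1, 33.3 and 44.3 CPM (log2 fold change 1.53 ± 0.18, adjusted p = 0.00153, and 0.0341 against Hp-low stroma). Pleiotrophin (Ptn), a heparin-binding growth factor, stood at 249.5, 346 and 586 CPM against 103, 163 and 296 CPM (log2 fold change 1.04 ± 0.15, adjusted p = 0.00551, and 0.253 against Hp-low stroma). For each of these the members were higher in 3 of 3 libraries, where the comparator of sarcoma 1 was the mixture described above.

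The other risers among the 12 were channels and less studied genes. The potassium channel gene Kcnj15 stood at 116, 192 and 151 CPM against 15.8, 53.4 and 93.6 CPM, and Brinp3 at 197, 107 and 109 CPM against 31.9, 34.2 and 69.6 CPM (adjusted p = 0.0302 and 0.0467). Nrep, a gene active in regenerating nerve and in wound fibroblasts, stood at 66.8, 45.5 and 156 CPM against 24.7, 31.9 and 68.8 CPM (adjusted p = 0.0471). The water channel gene Aqp5 stood at 14.1, 42.0 and 74.8 CPM against 3.41, 7.91 and 31.6 CPM (adjusted p = 0.0109), and 1 cell held 75% of the members' Aqp5 UMIs in sarcoma 2. Kcnj15, Brinp3 and Nrep did not pass against Hp-low stroma (adjusted p = 0.139, 0.216 and 0.128), and Aqp5 did (adjusted p = 0.0464).

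The promoters of the risers were searched for the same letters. RefSeq entries were at hand for 9 of the 12 genes (Edil3, Thbs1 and Nrep are named only), and 0 of the 9 held the AP-1 letters and 0 the RUNX letters in the 250 bases before a start. With 6.749 and 4.396% of all promoters holding them, a count of 0 among 9 is near that background.

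**Figure D3:**
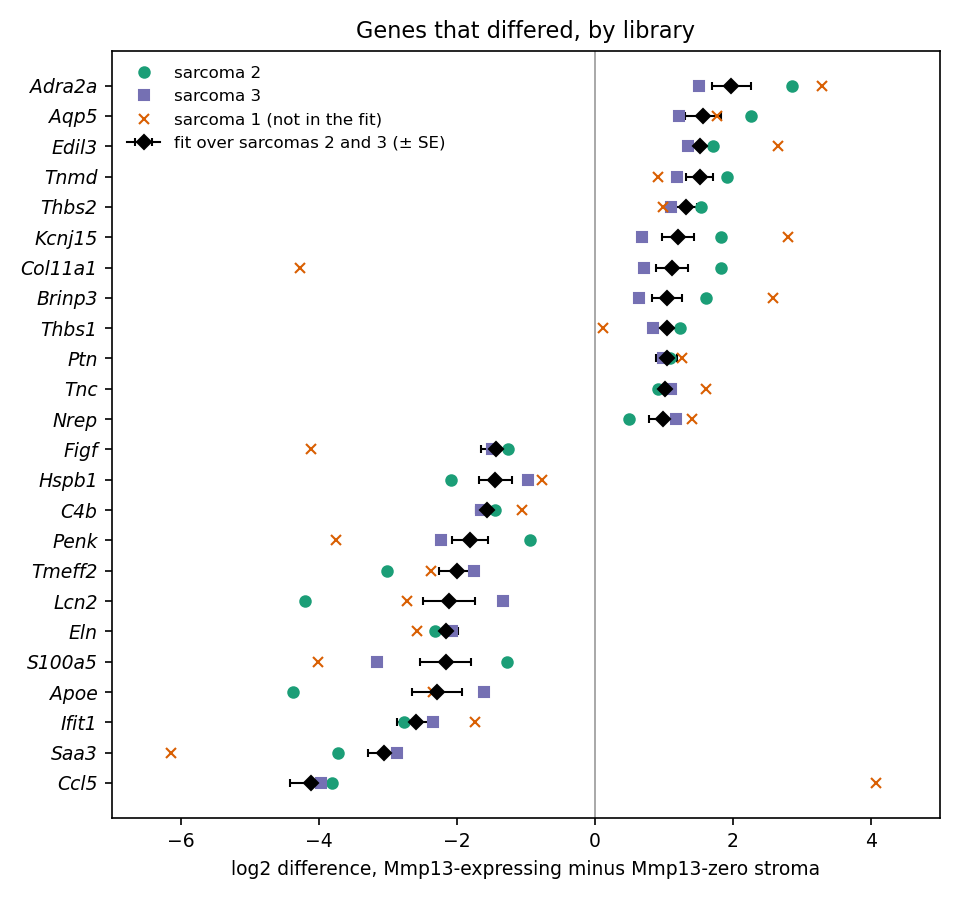
The 12 largest rises and 12 largest falls between Mmp13-expressing and Mmp13-zero stroma. The horizontal axis is the log2 difference; diamonds with bars are the fit over sarcomas 2 and 3 ± SE, and the other symbols are single libraries (log2 of CPM plus a pseudocount of 1), with sarcoma 1 outside the fit. Sarcoma 1 lies on the other side of 0 for Col11a1 and Ccl5.

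Among other proteases and their inhibitors 1 gene passed. Of 9 matrix metalloproteinase genes tested (Mmp13 itself left out), 0 were higher and 0 lower by edgeR (3 at an unadjusted p under 0.05, 0 by DESeq2 and 0 by limma-voom), with a median log2 fold change of 0.12. Stromelysin-1 (Mmp3), which activates other MMPs, stood at 197, 1759 and 2183 CPM in the members and at 335, 1528 and 2631 CPM in Mmp13-zero stroma (log2 fold change -0.03 ± 0.13). Gelatinase A (Mmp2) stood at 805, 790.1 and 1614 CPM against 373, 548 and 1437 CPM, and Mmp14, the membrane protease that activates it and proMMP13, at 348, 329 and 605 CPM against 161, 258 and 352 CPM. Both were higher in the members of each library and neither passed (adjusted p = 0.593 and 0.188). Among 24 other secreted proteases and activators 0 passed by edgeR, DESeq2 or limma-voom (1 at an unadjusted p under 0.05 by edgeR). Of 11 protease inhibitors tested 1 was higher: Serpine2, an inhibitor of thrombin and plasminogen activators, at 221, 336 and 273 CPM against 106, 212 and 148 CPM (log2 fold change 0.78 ± 0.16, adjusted p = 0.0467, and 0.0985 against Hp-low stroma). DESeq2 called 0 of the 11 and limma-voom 1.

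Timp1, the inhibitor given as a marker of these cells, was not separated from Mmp13-zero stroma. It stood at 4007, 4094 and 3472 CPM in the members and at 2068, 5030.3 and 1716 CPM in Mmp13-zero stroma, higher in sarcomas 1 and 3 and lower in sarcoma 2. The log2 fold change was 0.37 ± 0.23 (SE, adjusted p = 1), and it was -0.30 in sarcoma 2 alone. A Timp1 UMI was found in at least 98.0% of cells of either class in sarcomas 2 and 3. Timp2 (1205, 528 and 1176 CPM against 1072, 643 and 969 CPM) and Timp3 (383, 362 and 764 CPM against 375, 613 and 1107 CPM) did not pass either (adjusted p = 1 and 0.0686).

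Elastin and some genes of resting fibroblasts were lower in the members. Elastin (Eln), the core of elastic fibres, stood at 45.7, 36.7 and 253 CPM in the members and at 279, 187 and 1073 CPM in Mmp13-zero stroma, with no overlap of the Poisson intervals of these sums in any of the 3 libraries. The log2 fold change was -2.16 ± 0.17 (SE, adjusted p = 3.5e-05), and the call was kept against Hp-low stroma (adjusted p = 0.0112). An Eln UMI was found in 30.8, 40 and 69.2% of members and in 39.3, 41.9 and 85.5% of Mmp13-zero stroma (outside the gates 2.07, 1.54 and 16.7%), so in sarcoma 2 the shares lay close together while the levels did not. There the highest Mmp13-zero cell held 26.8% of Eln UMIs. Of 18 genes of the resting fibroblast hierarchy tested, 2 were lower (Clec3b and Gsn) and 0 higher by edgeR, with a median log2 fold change of -0.55. DESeq2 called 2 of the 18 and limma-voom 4. At an unadjusted p under 0.05 by edgeR 14 of the 18 passed, as did 671 of all 11024 genes tested. By edgeR 0.463% of all genes tested were called lower. Clec3b, which encodes tetranectin, stood at 21.1, 117 and 253 CPM against 295, 244 and 584 CPM (log2 fold change -1.14 ± 0.16, adjusted p = 0.00456, and 0.0571 against Hp-low stroma). Gelsolin (Gsn), an actin-severing protein, stood at 485, 493 and 1934 CPM against 993, 1136 and 3384 CPM (log2 fold change -0.99 ± 0.14, adjusted p = 0.00448, and 0.0539 against Hp-low stroma). Pi16 (66.8, 451 and 571 CPM against 404, 411 and 1137 CPM) did not pass (adjusted p = 0.798), and Dpp4 was at 0 in the members of all 4 sarcomas against 38.5, 11.6 and 3.63 CPM in Mmp13-zero stroma of sarcomas 1 to 3 (adjusted p = 0.0521).

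Several of the 12 largest falls, chosen by the same rule, encode secreted or surface proteins. Tmeff2, a membrane protein with follistatin-like domains, stood at 7.03, 5.24 and 23.1 CPM against 40.5, 49.4 and 79.8 CPM (log2 fold change -1.998 ± 0.27, adjusted p = 0.00322, and 0.0361 against Hp-low stroma). Figf, which encodes the lymphatic growth factor VEGF-D, stood at 3.51, 22.7 and 26.5 CPM against 77.4, 55.6 and 76.3 CPM (log2 fold change -1.44 ± 0.21, adjusted p = 0.00561, and 0.0608 against Hp-low stroma). Proenkephalin (Penk) stood at 3.51, 36.7 and 20.3 CPM against 60.1, 71.2 and 98.8 CPM, and apolipoprotein E (Apoe) at 17.6, 8.74 and 64.3 CPM against 93.0, 201 and 198 CPM (adjusted p = 0.00561 and 0.0093, and 0.154 and 0.128 against Hp-low stroma). The small heat shock protein gene Hspb1 stood at 134, 68.2 and 63.9 CPM against 228, 293 and 126 CPM (adjusted p = 0.0124, and 0.128 against Hp-low stroma). S100a5, at 1247 CPM outside the gates of sarcoma 2, stood at 7.03, 40.2 and 1.75 CPM against 129, 98.8 and 23.5 CPM (adjusted p = 0.0162). Without sarcoma-cell transcripts the log2 fold change of S100a5 was -0.26 (adjusted p = 1). C1qtnf7, 1 of the 4 gate genes, stood at 36.7 and 42.6 CPM against 70.6 and 92.7 CPM in sarcomas 2 and 3. It is 1 of the 51 lower genes counted above, a call not read as a result because the rule used this gene. The sum of these 4 genes chose the cells of both classes, so their levels are a description only.

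Acute-phase genes were lower, and here the use of Hp in the rule bears on the result directly. Of 7 acute-phase and antimicrobial genes tested, 5 were lower (Lcn2, Saa3, C3, C4b and Cp) and 0 higher by edgeR, with a median log2 fold change of -1.26. DESeq2 called 3 of the 7 and limma-voom 3. By edgeR 0.463% of all genes tested were lower. Serum amyloid A3 (Saa3) stood at 0, 10.5 and 66.7 CPM in the members and at 69.8, 151 and 492 CPM in Mmp13-zero stroma (log2 fold change -3.06 ± 0.23, adjusted p = 1.68e-05). Lipocalin-2 (Lcn2), which binds bacterial siderophores, stood at 0, 8.74 and 28.6 CPM against 5.61, 179 and 74.0 CPM (log2 fold change -2.11 ± 0.38, adjusted p = 0.0197). The central complement protein gene C3 stood at 130.0, 529.7 and 347 CPM against 364, 894 and 1007 CPM (log2 fold change -1.16 ± 0.17, adjusted p = 0.00581). Against Hp-low Mmp13-zero stroma the log2 fold changes of Saa3, Lcn2, C3 and Cp were -0.82, -0.31, -0.57 and -0.47 and none passed (adjusted p = 0.327, 1, 1 and 1). Complement C4b, at 119, 97.9 and 140.4 CPM against 249, 268 and 442 CPM, was the exception (log2 fold change -1.56 ± 0.17, adjusted p = 0.000767, and -1.34, 0.0496 against Hp-low stroma).

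Ifit1 and Ifit3, which interferon induces, were lower as well, Ifit3 having been picked out after its values were seen. Ifit1, an RNA-binding antiviral protein gene, stood at 21.1, 8.74 and 6.99 CPM in the members and at 72.8, 65.5 and 39.5 CPM in Mmp13-zero stroma (log2 fold change -2.60 ± 0.28, adjusted p = 0.000767, and 0.0341 against Hp-low stroma). Ifit3 stood at 7.03, 12.2 and 8.38 CPM against 37.5, 52.2 and 42.4 CPM (log2 fold change -2.25 ± 0.27, adjusted p = 0.00153). Among 24 chemokine and cytokine genes tested, 2 were lower (Cxcl9 and Cxcl12) and 1 higher (Ccl20) by edgeR, and DESeq2 called 1 and limma-voom 3. By edgeR 0.463% of all genes tested were lower and 0.299% higher. Cxcl12, the ligand of CXCR4, stood at 647, 745 and 1043 CPM against 404, 1380.4 and 1469.7 CPM (log2 fold change -0.68 ± 0.14, adjusted p = 0.048), and its direction turned against Hp-low stroma (log2 fold change 0.22, adjusted p = 1). The T cell chemokine gene Ccl5, which had the largest of the 12 named falls, stood at 0 and 9.43 CPM in the members of sarcomas 2 and 3 against 13.0 and 163 CPM, and at 141 CPM against 7.42 CPM in sarcoma 1, the other way round. Few cells carried it: in Mmp13-zero stroma of sarcoma 2 1 cell held 87.0% of its UMIs and in sarcoma 3 24.7%, and a Ccl5 UMI was found in 21.5% of members and 18.9% of Mmp13-zero stroma of sarcoma 3. Its fitted log2 fold change of -4.12 ± 0.30 (adjusted p = 1.68e-05) became -0.67 (adjusted p = 1) without sarcoma-cell transcripts, and -0.97 (adjusted p = 1) with sarcoma 1 added to the fit. Ccl20, an attractant of CCR6-bearing cells, stood at 45.7, 0 and 118 CPM in the members against 0.601, 0.282 and 3.22 CPM, from 1 of 13, 0 of 20 and 11 of 107 cells.

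Transcription factors known to act at the Mmp13 promoter did not pass the test. Of 19 AP-1 and immediate-early genes tested, 0 passed by edgeR, DESeq2 or limma-voom (2 at an unadjusted p under 0.05 by edgeR, median log2 fold change -0.10). Fos stood at 2709.7, 1255 and 2064 CPM in the members against 1735, 1308 and 1576 CPM, and Jun at 1567, 1453 and 1523 CPM against 1596, 1491 and 1376 CPM. Of 12 RUNX and skeletal factors 0 passed by edgeR, DESeq2 or limma-voom (3 at an unadjusted p under 0.05 by edgeR). Runx1 stood at 569, 404 and 537 CPM against 297, 318 and 434 CPM (log2 fold change 0.33 ± 0.15, adjusted p = 0.758) and Runx2, the osteoblast factor, at 109, 89.2 and 60.4 CPM against 37.1, 54.2 and 39.2 CPM (0.67 ± 0.18, adjusted p = 0.159), higher in the members in 3 of 3 libraries for each. Calls were few or 0 in the signalling and state lists. By edgeR, DESeq2 and limma-voom 0 genes passed among 23 of TGF-beta and BMP signalling, 15 of collagen processing, 17 of hypoxia and glycolysis, 8 contractile genes and 27 of the cell cycle, with 6, 2, 2, 4 and 4 at an unadjusted p under 0.05 by edgeR. Of 16 WNT genes 1 was lower (Wnt4), and of 27 growth factor genes 2 were lower (Fgf18 and Igfbp5), by edgeR. In these 2 lists DESeq2 called 0 and 0, and limma-voom 0 and 2. Counts at this depth and number of libraries do not show that these genes were alike in the classes.

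The levels were next read along the number of Mmp13 UMIs per cell, within stroma with fewer than 3 Hp UMIs. This is a description, since deeper cells hold more Mmp13 UMIs: the median depth in sarcoma 3 was 20337, 24316.5, 22935.5 and 25858 UMIs in cells with 0, 1 to 2, 3 to 9 and 10 or more (1316, 100, 56 and 51 cells). Over these steps Tnc in sarcoma 3 stood at 285, 542, 770.2 and 1029 CPM, and Eln at 1116, 560.4, 234 and 271 CPM. Clec3b there stood at 605, 439, 347 and 169.6 CPM and C3 at 895, 540.1, 419 and 282 CPM. In sarcoma 2 (80, 6, 9 and 11 cells) Tnc stood at 414, 352, 377 and 688 CPM, and Eln at 281, 119 and, above the threshold, 20.04 and 49.6 CPM. Timp1 in sarcoma 3 stood at 1435, 2324, 2036 and 4749 CPM and in sarcoma 2 at 4988, 4973, 3170.2 and 4809 CPM. Eln thus had its highest level in cells without Mmp13 and its lowest in those with 3 to 9 UMIs in both libraries. Tnc, Clec3b and C3 were ordered over all 4 steps in sarcoma 3 and not in sarcoma 2. There C3 stood at 449, 459, 401 and 629 CPM and Clec3b at 239, 107, 204 and 49.6 CPM.

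**Figure D4:**
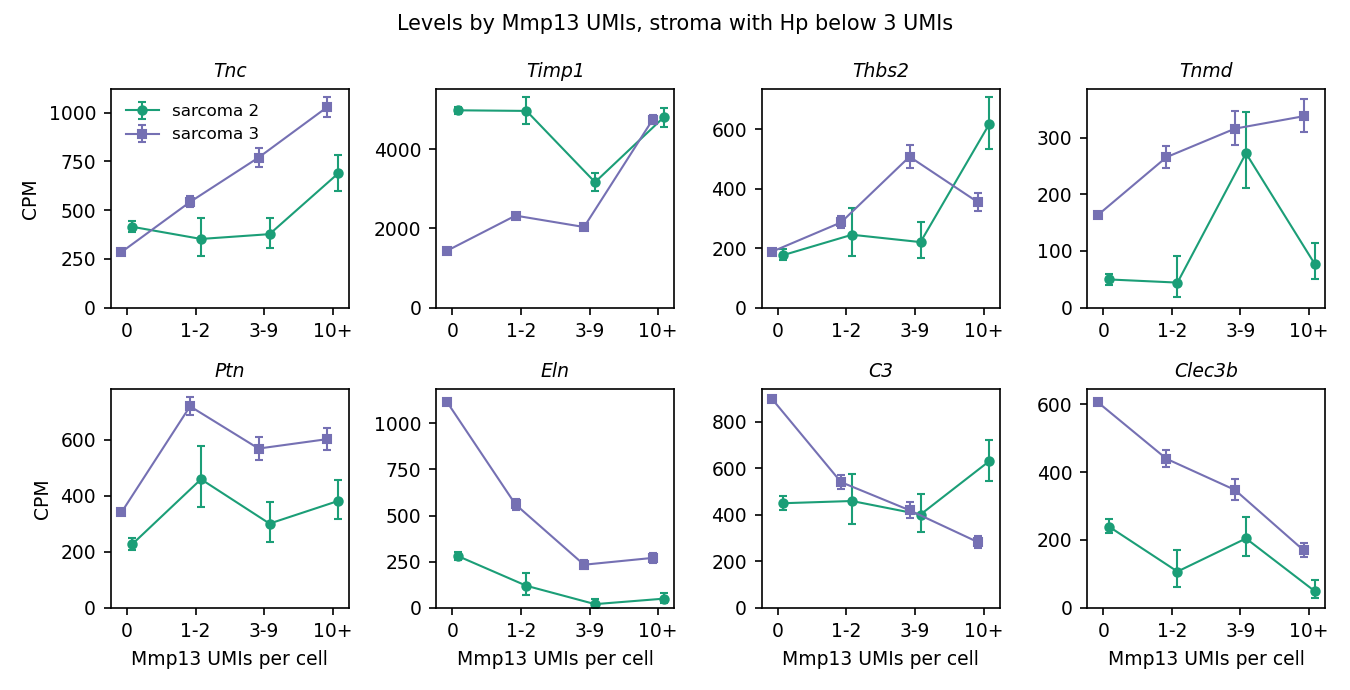
Levels (CPM, y axes starting at 0) of 8 genes in stroma with fewer than 3 Hp UMIs, by Mmp13 UMIs per cell, in sarcoma 2 (green circles) and sarcoma 3 (purple squares). Bars are exact 95% Poisson intervals and cover counting error only. In sarcoma 3 Tnc goes from 285 to 1029 CPM and Clec3b from 605 to 169.6 CPM. In sarcoma 2 neither gene is ordered over all steps.

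Members were also set against Hp-expressing stroma (at least 3 Hp UMIs and 0 Mmp13 UMIs: 24, 49 and 197 cells in sarcomas 1 to 3). Of 10143 genes tested, 94 (0.927%) passed, 27 higher (0.266%) and 67 lower in the members (0.661%), and 808 passed an unadjusted p of 0.05. Without the library block 0 passed (200 at an unadjusted p under 0.05). The comparison shares its member cells, and some comparator cells, with the one above. Of 5 tenocyte markers tested, 3 were higher: Tnmd (163 and 328 CPM in the members against 31.4 and 27.3 CPM in sarcomas 2 and 3, log2 fold change 3.08 ± 0.28, adjusted p = 0.00237), Scx (52.4 and 85.9 CPM against 0.713 and 10.5 CPM, 3.33 ± 0.36, adjusted p = 0.00607) and Thbs4 (862 and 4361 CPM against 169 and 1446 CPM, 1.89 ± 0.18, adjusted p = 0.00275). DESeq2 called 3 of the 5 tenocyte markers and limma-voom 4. Over all genes DESeq2 called 49 of 5423 tested and limma-voom 267 of 10143. In sarcoma 2 a Scx UMI was found in 10% of members, and nearly all Scx UMIs came from 1 cell, as given above. Ptn stood at 346 and 586 CPM against 63.4 and 50.6 CPM (3.01 ± 0.26, adjusted p = 0.00223). Other named risers were the imprinted gene Mest (66.4 and 367 CPM against 22.1 and 28.8 CPM), Aspn, Edil3, Thbs1, the ephrin receptor gene Epha3, the homeobox gene Meox1 and Mgp, an inhibitor of calcification. Against Hp-low Mmp13-zero stroma the log2 fold changes of these genes were smaller, and those of Meox1 and Mgp turned (-0.55 and -0.21). There Tnmd stood at 1.33, Scx at 1.32, Thbs4 at 0.44 and Ptn at 0.72. Mest, Aspn, Edil3, Thbs1 and Epha3 stood at 0.55, 0.61, 1.36, 0.91 and 0.76.

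Tnc did not separate the members from Hp-expressing stroma: it stood at 552 CPM against 108 CPM in sarcoma 2 and at 907 CPM against 1169.7 CPM in sarcoma 3 (log2 fold change 0.80 ± 0.50, adjusted p = 0.838). Timp1 stood at 4094 and 3472 CPM against 5094 and 3249.9 CPM (-0.16 ± 0.14, adjusted p = 0.914). Lower in the members were Saa3 (10.5 and 66.7 CPM against 359 and 2479.8 CPM, -5.23 ± 0.17, adjusted p = 7.95e-06), Lcn2 (8.74 and 28.6 CPM against 414 and 321 CPM, -4.00 ± 0.33, adjusted p = 0.00223), Cxcl12 (745 and 1043 CPM against 2759.9 and 2873 CPM) and C3 (529.7 and 347 CPM against 1571 and 1619.7 CPM). Since Hp is itself an acute-phase gene and set the classes, these falls are not independent of the rule. Tnxb, Apoe, Fabp4, Wnt4, Tmeff2, Ifit1, Cxcl10, Cp, Rasl11a and Dmkn were lower too, with adjusted p between 0.00275 and 0.0188. Of 27 matricellular genes 3 were higher (Thbs1, Thbs4 and Aspn) and 1 lower (Tnxb) by edgeR, and DESeq2 called 5 and limma-voom 9. Of 8 matrix metalloproteinases 0 passed by edgeR (3 at an unadjusted p under 0.05, 1 by DESeq2 and 2 by limma-voom).

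Granzyme genes of the Gzmb cluster, serine proteases best known from killer lymphocytes, were also found in the members, and were picked out after their values were seen. Gzmc stood at 531, 57.7 and 19.9 CPM in the members of sarcomas 1 to 3 and at 40.5, 16.4 and 5.77 CPM in Mmp13-zero stroma (log2 fold change 1.81 ± 0.25, adjusted p = 0.0044, and 0.0361 against Hp-low stroma), and 9 of 13, 9 of 20 and 22 of 107 members held a UMI. Gzmd stood at 1286, 83.9 and 0 CPM against 62.4, 9.32 and 0 CPM, and 1 cell held 93.8% of its UMIs in the members of sarcoma 2. Gzme stood at 1430.4, 131 and 4.54 CPM against 83.2, 61.3 and 0.609 CPM (adjusted p = 0.0778), and passed against Hp-expressing stroma (9.98 and 0 CPM in sarcomas 2 and 3, adjusted p = 0.00759). These genes are near-identical paralogs, so how reads were split among them is uncertain. Ptprc was at 0 in the same cells.

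Sarcoma 1, which had 13 members and was not in the fit, gives the same measures in a further library. Of the 33 higher genes, 24 (72.7%) were higher in its members than in its Mmp13-zero stroma, where 42.8% of all genes tested were. Of the 51 lower genes, 44 (86.3%) were lower there, against 57.0% of all tested. With its Mmp13-zero stroma limited to cells with a Smarcb1 UMI, the counts were 24 (72.7%, against 44.3% of all) and 43 (84.3%, against 55.1%). These are counts over 1 library with no test. Ccl5, Col11a1 and Thbs4 were among the genes that went the other way.

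The 2 members of sarcoma 4 stood apart from the others. They held 262 UMIs of Mmp10 (7320.1 CPM), where the members of sarcomas 1 to 3 held 0, as well as Mmp9 at 3409 CPM, Mmp12 at 1425 CPM and Mmp11 at 726 CPM, and no UMI of Tnmd, Ptn, Thbs1 or C3. Their mural markers summed to 2151 CPM, against 176, 36.7 and 110 CPM in the members of sarcomas 1 to 3, and their contractile genes to 5057 CPM against 3279, 1479 and 996 CPM. The general fibroblast genes summed to 21094 CPM against 35384, 47671 and 62122 CPM. The setting without sarcoma-cell transcripts kept 1 of the 2 cells. What type of cell they are was not tested, and they took part in no comparison.

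By likeness over single cells, thinned to 5000 UMIs, the 8 genes whose counts followed Mmp13 most closely in stroma of sarcomas 2 and 3 (176 and 1770 cells, 7345 genes compared) were Spp1 (mean Spearman correlation 0.259), Adra2a (0.222), Fndc1 (0.217), Thbs2 (0.205), Spon1 (0.198), Col12a1 (0.189), Ncam1 (0.184) and Tnc (0.184). The median over all genes was -0.0013. Cells of a library are not replicates, and Mmp13 also set the classes. These values thus only order the genes, are not separate from the calls above, and are all weak.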

How the data were processed

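Single-cell RNA libraries of 4 sarcomas and 1 muscle sample were analysed. The deposited values are raw UMI counts per gene and cell. Per the file headers the authors made them in Cell Ranger (version 6.0.1), with mm10 as the build, per the submitters' processing notes. No value was normalized before deposit as far as the files show. Of 28001 features 27645 (98.73%) matched an annotation entry.

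Counts were summed per library and class. The test was edgeR's quasi-likelihood test (edgeR 4.0.16, limma 3.58.1, R 4.3.3) with TMM scaling, edgeR's filter on low counts and the library as a block, over the 2 libraries with at least 20 cells on both sides, with p adjusted by Benjamini-Hochberg over all genes tested. Each library gave both sums of a pair, so the pairing by library comes from the design. DESeq2 1.42.0, limma-voom and other gates were alternatives. CPM is a sum scaled per 1000000 UMIs of the class, with exact 95% Poisson intervals. Shares have exact 95% binomial (Clopper-Pearson) intervals. Both cover counting error only. Some shares were recomputed after thinning each cell to 5000 UMIs. Scrublet (scanpy 1.11.5, Python 3.11.15) marked as doublets 7 muscle cells and 0, 1, 143 and 1 cells of the sarcomas in order, too few to have worked in most of them, so no doublet was removed and the top 6% of scores were left out as an alternative. The test was also run on simulated data.

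Named genes were the 12 largest rises and 12 largest falls past an adjusted p of 0.05 with at least 50 CPM in the higher class and 1 direction in both libraries, with given markers and the most abundant members of each list. Genes outside this rule are said to be so or belong to a list's count. The members and lists were chosen with earlier results of these data known.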

Additional observations from a re-analysis of the deposited data

Results flagged for a closer look

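The number of stroma cells that passed the gates was 1777 in sarcoma 3, against 215, 177 and 170 in sarcomas 1, 2 and 4, a gap to the nearest library that was large for a group of 4. Of 11 values checked in this way 1 stood out, and chance alone picks about 1 in 20 such groups. Sarcoma 3 thus holds most of the members (107 of 142) and carries most of the counts behind the levels over libraries.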

How the results depend on the processing

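Against Mmp13-zero stroma the count of 84 genes became 0 without the library block (no replicate block), 35 with DESeq2, 40 with scaling by library size, 250 with no filter on low counts, 3 with at least 5 Mmp13 UMIs, 27 with at least 8 gate UMIs, 26 without cells carrying Cdkn2a, Nefl or Gchfr and 24 against Hp-low stroma. In settings added after the data were seen it became 28 with sarcoma 1 added, 127 without cells lacking Smarcb1 and 46 with both of the last. Of the 127 genes, 63 were among the 84 and in the same direction. Against Hp-expressing stroma the count of 94 became 0 without the library block, 49 with DESeq2, 267 with limma-voom, 55 with scaling by library size, 429 with no filter, 338 and 281 with at least 5 and at least 1 Mmp13 UMIs, 183 with at least 8 gate UMIs, 161 after thinning, 187 without the top doublet scores and 222 without cells carrying Cdkn2a, Nefl or Gchfr. There the added settings gave 135 with sarcoma 1 added, 157 without cells lacking Smarcb1 and 46 with both. The cause was not tested. Limma-voom, at least 1 Mmp13 UMI, thinning and leaving out the top doublet scores gave 75 to 91 genes against Mmp13-zero stroma. Of these, 58, 60, 45 and 69 in that order were among the 84 and in the same direction. All 84 and all 94 genes kept their direction without the block. The share of members in sarcoma 3 was 4.90% with at least 5 UMIs, 11.6% with at least 1 and 3.24% after thinning, and in sarcoma 4 it was 0 with at least 8 gate UMIs and 0 after thinning. Leaving out a library leaves no residual degrees of freedom, so these are values without a test: the log2 fold change of Timp1 ranged from -0.30 to 1.02 against Mmp13-zero stroma and from -0.32 to 0.10 against Hp-expressing stroma, and that of Tnc from -0.37 (without sarcoma 2) to 2.34 (without sarcoma 3) against Hp-expressing stroma. Timp1 against Hp-expressing stroma was 0.17 with sarcoma 1 added and 0.16 with cells lacking Smarcb1 left out as well. The 13 to 107 members per library limit what low genes can show.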

Other observations

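Cells with both genes, at least 3 UMIs of Mmp13 and of Hp, numbered 6, 20 and 44 in sarcomas 1 to 3. Tnc stood in them at 360.2, 517 and 2650.3 CPM, Saa3 at 0, 420.2 and 5658 CPM, and Ptn at 225, 128 and 116 CPM. Eln stood at 45.0, 16.7 and 275 CPM, where the members held 45.7, 36.7 and 253 CPM.

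Some cells outside the stroma gate also held at least 3 Mmp13 UMIs: 10, 8, 17 and 2 cells with low Rgs5 in sarcomas 1 to 4. Their Smarcb1 level was 29.3, 48.2, 40.9 and 23.4 CPM, Tnc stood at 101, 660.3, 386 and 164 CPM, and Ptprc was at 0. Their median sum of gate UMIs was 0, 2, 3 and 1.5. A further 7 cells in sarcoma 3 and 1 in sarcoma 4 were high in Rgs5.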
